A study of Manihot esculenta with 8 samples.

Results

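The genes described here are the well-expressed genes of cassava shoots whose RNA was strongly reduced after 3 h in the cold. A gene ID was a member when its mean over the control libraries was at least 10 CPM (a gene's count divided by all counts of its library, per 1000000 counts). Its mean over the cold libraries also had to be at most 1/3 of the control mean, with every cold library below every control library. Of 31901 gene IDs in the table, 15823 reached 10 CPM in control, and 124 of these met the whole rule, which is 0.784% of them. Without regard to size, every cold library was below every control library for 13.1% of the 15823 IDs. The same rule turned round, with cold at least 3 times control, was met by 38 IDs (0.240%). With libraries scaled by TMM factors these numbers were 118 and 43, and with DESeq2 size factors 112 and 43. The rule uses the difference between control and cold, so the size of the fall and the separation of the groups describe how members were chosen and are not findings.

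Strand-specific RNA sequencing was used on shoots of the cassava cultivar TM12 (Manihot esculenta, grown in the tropics for its starchy roots). All plants carried the wild-type genotype and were seedlings from climate chambers, where a 16 h day at 20 °C alternated with an 8 h night at 18 °C and humidity was 60%. The 4 control libraries came from untreated shoots, whose age is not stated. The 4 cold libraries came from seedlings that were moved after 2 weeks to a lit room at 4 °C for 3 h. The labels give no time of day for either harvest, so the cold treatment and a difference in the hour of harvest cannot be told apart. Nothing says that the libraries of a group came from separate plants, so the spread between them may be partly technical. In whole shoots, fewer cells of a type and less RNA per cell cannot be told apart either.

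The amount of a transcript is set by how fast it is made and how fast it is degraded. When synthesis of an RNA stops, its level declines with a pace fixed by its half-life, the time in which the remaining amount drops to 50%. A short treatment can therefore lower a transcript deeply only where that transcript is short-lived during the treatment, however fully its gene is shut off. Cassava is a chilling-sensitive plant of the tropics, and a rapid change of transcript levels is an early response of plants to low temperature.

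The IDs are printed as the deposited table gives them. No ID could be paired with a gene name or description (0 of 31901 matched the gene table at hand), so members are described by level, rank and position and not by function. Library totals lay between 62798223 and 100031792 counts. The smallest count of any member in any cold library was 44, and the median over members of their smallest cold count was 413. The 1000 most abundant IDs of a library took 36.36% to 38.07% of its counts in 3 of the libraries (control replicate 1 and replicates 1 and 3 of the cold group) and 33.41% to 34.57% in the other 5.

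Together the members took a small share of each library, and the rule fixed the separation of this share between the groups. Their summed share of all counts was 1.14%, 1.01%, 0.915% and 0.846% in the control libraries, taken from replicate 1 to replicate 4. Over the cold libraries, in the same order, it was 0.239%, 0.248%, 0.223% and 0.226%. The mean fell from 0.976% ± 0.126 to 0.234% ± 0.0118 (SD, n = 4 each). The 4 cold libraries lay closer to each other than the 4 control libraries did, with control replicate 1 at the top and control replicate 4 at the bottom of the controls.

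The level in control ranged from 10.4 to 887 CPM, with a median of 35.5 CPM over the members. In the cold it ranged from 0.871 to 138 CPM, with a median of 8.40 CPM. A level of 100 CPM or more in control was reached by 21 members, and 32 members lay between 10 and 20 CPM. After the cold, 59 members still had at least 10 CPM, 44 were below 5 CPM and 1 was below 1 CPM. The members thus remained measurable in the cold libraries, and the falls were not limited by counts near 0.

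**Figure D1:**
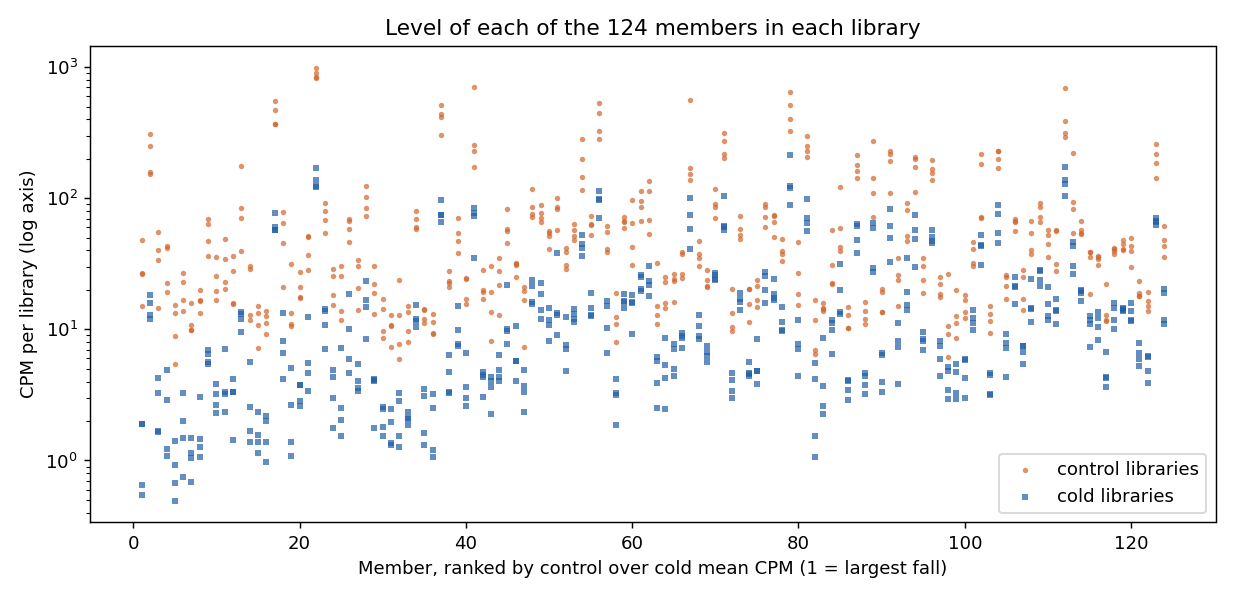
Level of each member in each library, in CPM on a log axis, against its rank by the size of the fall (1 is the largest). Orange circles are the 4 control libraries and blue squares the 4 cold libraries; the distance between the colours narrows from the left, where 7 members fell at least 10-fold, to the right, where the smallest fall was 3.02-fold.

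Most falls were close to the 3-fold limit. The median ratio of control to cold was 3.92, with quartiles of 3.27 and 5.67. A fall of 3-fold to below 4-fold was seen in 65 members, 4-fold to below 5-fold in 16, 5-fold to below 6-fold in 14, and 6-fold to below 8-fold in 19. Only 10 members reached 8-fold and 7 reached 10-fold. In the fit across all tested IDs with edgeR, the members' log2 fold changes ran from -4.49 to -1.56 with a median of -1.94, and their standard errors from 0.11 to 0.58. That fit called 123 of the 124 members lower at an adjusted p below 0.05 (quasi-likelihood test, Benjamini-Hochberg adjustment), where 5.09% of all 26517 tested IDs and 6.20% of those at 10 CPM or more were called lower. Since the rule used the same contrast, this count supports nothing about the members.

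MANES_01G129800, on chromosome 1, had the largest fall. Its level was 27.1, 47.9, 15.1 and 26.5 CPM in the 4 control libraries (replicates 1 to 4 in order, here and below) and 1.89, 0.546, 1.90 and 0.652 CPM in the 4 cold libraries. The groups were far apart, with the lowest control library 7.98 times the highest cold one, while control replicate 2 was 3.16 times control replicate 3. The mean went from 29.1 ± 13.6 to 1.25 ± 0.748 CPM (SD, n = 4 each), a ratio of 23.4 and a log2 fold change of -4.49 (SE 0.55). Leaving out 1 library at a time gave ratios from 18.4 to 28.3.

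MANES_15G075600, on chromosome 15, was the most abundant member. Its level was 894, 835, 829 and 990 CPM in control and 125, 122, 137 and 170 CPM in the cold. Both groups were tight, and replicate 4 was the highest library in each. The mean went from 887 ± 74.9 to 138 ± 21.8 CPM (SD, n = 4 each), a ratio of 6.41 and a log2 fold change of -2.65 (SE 0.17). The ratio stayed between 6.16 and 6.93 whichever library was left out.

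The other 6 members past 10-fold lay on chromosomes 2, 8, 10 and 11. The second largest fall was also one of the most abundant, at 309, 249, 160 and 154 CPM in control and 18.2, 12.1, 15.9 and 12.9 CPM in the cold. It showed the widest gap of all members between the lowest control and the highest cold library, 8.46 times. Rank 3 went from 40.5, 54.8, 14.5 and 33.5 CPM to 3.30, 1.68, 4.24 and 1.65 CPM, and rank 4 from 43.3, 41.5, 19.3 and 22.5 CPM to 4.86, 1.23, 2.90 and 1.08 CPM. In both, control replicate 3 was the lowest control library, and cold replicates 1 and 3 were above cold replicates 2 and 4. The ranks 5, 6 and 7 had control means of 10.8, 20.1 and 11.6 CPM and cold means of 0.871, 1.88 and 1.09 CPM.

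Among the abundant members, falls of very different size occurred at like control levels. The second most abundant stood at 325, 641, 401 and 513 CPM in control and at 212, 124, 119 and 89.2 CPM in the cold, a 3.46-fold fall. The one of rank 3 by level stood at 368, 554, 366 and 474 CPM in control and at 57.6, 76.6, 59.9 and 57.5 CPM in cold replicates, a 7.0-fold fall. Rank 4 stood at 688, 314, 385 and 292 CPM in control and at 104, 172, 128 and 138 CPM in the cold, a 3.10-fold fall. In rank 4, control replicate 1 was far above the other control libraries, whereas replicate 1 was the lowest of the cold libraries. Rank 5 stood at 512, 441, 416 and 305 CPM in control and at 97.1, 66.2, 74.7 and 74.4 CPM in the cold, a 5.36-fold fall. Rank 6 stood at 534, 444, 323 and 282 CPM in control and at 71.0, 114, 97.0 and 97.8 CPM in the cold, a 4.17-fold fall. In both ranks 5 and 6, control replicate 1 was the highest and control replicate 4 the lowest control library. Of the 13 members at 200 CPM or more, 5 fell at least 5-fold and the median fall was 3.71-fold. Of the 32 members between 10 and 20 CPM, 13 fell at least 5-fold and the median was 3.85-fold. Spearman's rho between control level and fall was -0.14 across the 124 members, where the control mean enters both measures, and is given as a description. The rule leaves out IDs below 10 CPM and falls below 3-fold, so the figure says nothing of the genes outside it.

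**Figure D2:**
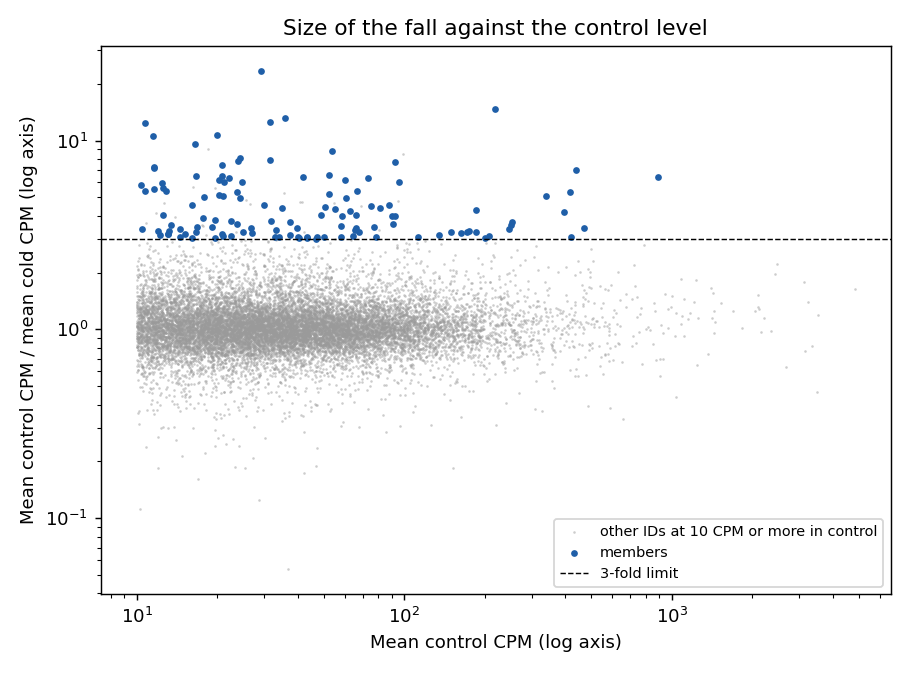
Ratio of mean control to mean cold CPM against mean control CPM, both on log axes, for the 15823 IDs at 10 CPM or more in control. Blue points are the 124 members, grey points the other IDs, and the dashed line is the 3-fold limit; grey points above the line are the 27 IDs that fell as far but had overlapping groups.

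The limits of the rule cut through a continuous range. The 3 members nearest to the fold limit fell 3.02-, 3.03- and 3.04-fold, and the nearest IDs outside it, with groups apart, fell 3.00-, 2.99- and 2.99-fold (2.9992, 2.9902 and 2.988 before rounding). At the limit on the level, the lowest control means inside were 10.4, 10.5 and 10.8 CPM, and the highest outside were 9.99, 9.57 and 9.46 CPM. A further 27 IDs reached 10 CPM and a 3-fold fall but had overlapping groups. In the nearest of these the lowest control library stood at 13.2 CPM and the highest cold library at 13.7 CPM. The narrowest gap inside was 72.1 against 64.4 CPM, for a member on chromosome 18.

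A 3 h fall sets an upper bound on the half-life of a transcript in the cold, if decay is first-order. The control mean must also stand for the level at transfer, which was not tested, as the hour of the control harvest is not stated. The half-life before the cold is not bounded. With synthesis stopped at the moment of transfer, a fall to a given fraction in 3 h needs a half-life of 3 h divided by the log2 of the ratio of control to cold. Any synthesis that went on in the cold would make the true half-life shorter than this bound. The rule itself caps the bound at 1.89 h, or 114 min, since it asks for a 3-fold fall. The bound is a restatement of the fall, and synthesis, decay and the total amount of RNA per shoot were not measured.

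Within that cap the members' bounds spread about 3-fold. They ran from 39.6 min for MANES_01G129800 to 113 min for the member nearest to the limit, with a median of 91.3 min and quartiles of 71.9 and 105 min. A bound below 1 h applied to 10 members and one below 1.5 h to 59. For MANES_15G075600, the most abundant member, the bound was 67.2 min. Taken in each cold library alone, the median bound over members was 1.5, 1.48, 1.36 and 1.45 h in replicates 1 to 4 (1.45 ± 0.0611 h, SD, n = 4).

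The bound loosens when the most cautious libraries are paired. From the lowest control and the highest cold library, its median rose to 2.56 h, it lay below 3 h for 83 members and above 3 h for 41, and it reached 18.3 h for the member with the narrowest gap. It was still 1.00 h for MANES_01G129800 and 0.974 h for the second largest fall. If synthesis instead continued at 10% of the control rate, with the same decay rate in cold as in control, the median bound was 1.24 h over the 117 members for which a value exists. The other 7 members had already dropped to 10% or less of the control level, which such synthesis cannot give at an unchanged decay rate.

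The level of each chosen ID was also read in a library that took no part in the choice. The rule was applied to 7 libraries at a time, and the IDs it chose, between 116 and 152, were read in the library left out. When a cold library was left out, it lay below all 4 control libraries for 84.9%, 98.4%, 99.2% and 97.5% of the chosen IDs (cold replicates 1 to 4). When a control library was left out, it lay above all 4 cold libraries for 96.6%, 91.6%, 94.0% and 96.5% (control replicates 1 to 4). Over all IDs at 10 CPM or more, the same was true of 25.9% to 38.0%. The 4 libraries of the other group were used in the choice, which partly fixes these shares and those on size that follow, and the IDs in general were not chosen in that way. Cold replicate 1 was the library in which the chosen IDs most often failed to separate, for 23 of 152 IDs.

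The 3-fold size was met less often than the separation from the whole other group, and these criteria are unlike. In the left-out cold libraries, 57.9%, 68.0%, 77.3% and 75.0% of the chosen IDs were at most 1/3 of the control mean (replicates 1 to 4). In the left-out control libraries, 69.8%, 68.7%, 62.4% and 54.5% of them were at least 3 times the cold mean. Over all IDs at 10 CPM or more this share was 0.585% to 2.24%. The median fall in the left-out library was smaller than in the libraries used for choosing in 6 of the 8 cases, for example 3.17 against 3.93 for control replicate 4 and 3.36 against 3.85 for cold replicate 1. It was larger for control replicate 1 (4.12 against 3.86) and for cold replicate 3 (4.49 against 3.90).

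**Figure D3:**
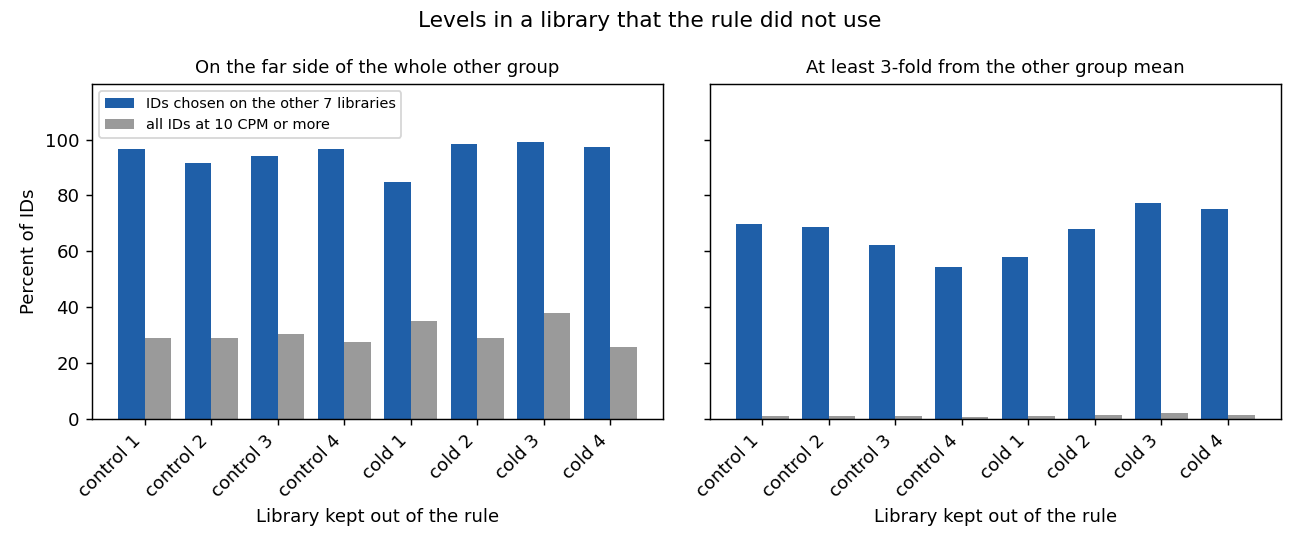
Percent of IDs that lay beyond the whole other group (left) or at least 3-fold from the other group's mean (right) in a library kept out of the rule, for each of the 8 libraries. Blue bars are the IDs chosen on the other 7 libraries and grey bars all IDs at 10 CPM or more in control; blue bars are at 84.9% to 99.2% on the left and 54.5% to 77.3% on the right.

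Replicates of a group differed more among members than among well-expressed IDs in general. The SD of log2(CPM + 0.5) over the 4 control libraries had a median of 0.34 among members and 0.20 among all 15823 IDs at 10 CPM or more. Over the 4 cold libraries it was 0.36 and 0.24. The rule makes members lower in the cold than in control, and their cold value was 0.29 with 2 CPM added instead of 0.5. Of the members, 69 lay above the upper quartile of the control SD of all 15823 IDs and 6 below the lower quartile. Counting noise was far smaller, with a median of 0.026 in control and 0.055 in cold libraries for members, and of 0.026 and 0.027 for all IDs. This covers read sampling only, and the source of the rest was not tested. The demand for groups apart limits the spread of members, while the use of group means can let in IDs raised by 1 high control library. The rule thus acts on the spread in both directions, and these values are a description. The SD was larger in control than in cold libraries for 52.4% of members and 42.9% of all IDs.

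Which library was highest or lowest differed between members and all IDs. The rule used these same values, and a high control library makes its limits on the means easier to meet. The IDs in general were not chosen in that way, and members are not separate readings of a library, so the shares are a description. Control replicates 1 and 2 were the highest control library for 48 and 46 members, control replicate 3 for 26 and control replicate 4 for 4. Over all IDs at 10 CPM or more these shares were 28.4%, 20.1%, 27.3% and 24.3%, against 38.7%, 37.1%, 21.0% and 3.23% of members. Control replicate 1 was the lowest control library for 43.6% of all IDs and for 17.7% of members. Of the 26 members highest in control replicate 3, 13 were highest in cold replicate 4 and none in cold replicate 3. Over all members, the highest cold library was replicate 1 for 42, replicate 2 for 31, replicate 3 for 26 and replicate 4 for 25. These were 33.9%, 25.0%, 21.0% and 20.2% of members, against 23.2%, 31.3%, 23.2% and 22.2% of all IDs at 10 CPM or more. Both control replicate 1 and cold replicate 1 belong to the libraries with the large share in abundant IDs, and the part of that in these orders was not tested.

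**Figure D4:**
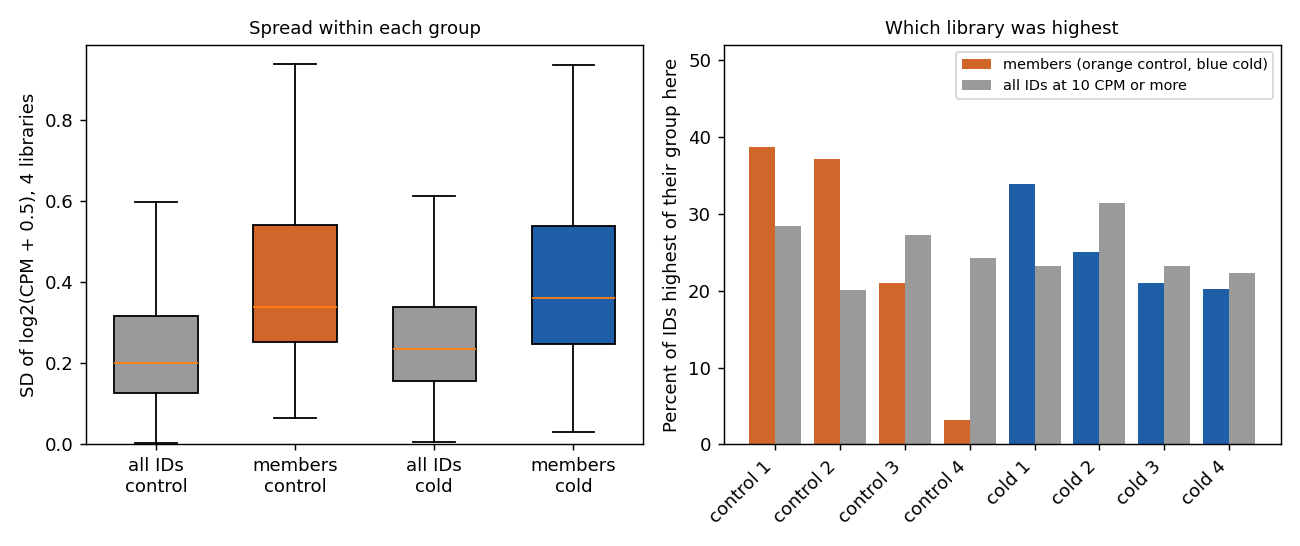
Left, SD of log2(CPM + 0.5) over the 4 libraries of a group, as boxes from the lower to the upper quartile with the median line and whiskers to 1.5 times the box length (points beyond not drawn), for all 15823 IDs at 10 CPM or more and for the 124 members; the median is 0.34 against 0.20 in control and 0.36 against 0.24 in cold libraries. Right, percent of IDs for which each library was the highest of its group, members in colour and all IDs in grey; control 4 stands at 3.23% for members and 24.3% for all IDs.

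Some members owed much of their control mean to 1 library. Rank 7 by level, on chromosome 14, stood at 705, 253, 230 and 174 CPM in control and at 34.7, 83.8, 72.7 and 76.6 CPM in the cold. Control replicate 1 was more than 2 times every other library, and the fall was 5.09-fold with it and 3.27-fold without it. Rank 8, on chromosome 9, stood at 557, 169, 152 and 138 CPM and at 40.7, 75.02, 100.2 and 58.0 CPM, and its fall went from 3.71-fold to 2.24-fold without control replicate 1. By contrast, a member on chromosome 11 stood at 41.9, 40.8, 39.6 and 37.6 CPM in control and at 9.99, 14.5, 15.7 and 11.8 CPM in the cold, a 3.07-fold fall with the highest control library 1.11 times the lowest. Over all members, 81 kept a ratio of at least 3 whichever library was left out, 43 dropped below 3 in at least 1 case (lowest ratio 2.11), and 7 moved by more than 1.5 times.

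The one member that edgeR did not call was on chromosome 1 at locus number 198300. Its level was 11.9, 6.52, 16.6 and 6.94 CPM in control and 4.18, 1.07, 1.54 and 5.58 CPM in the cold. Replicates 1 and 4 of the cold group came close to replicates 2 and 4 of the control group. Its log2 fold change was -1.73 (SE 0.53), against a median standard error of 0.28 over the members.

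Members were also compared with each other by their deviations from the group means over the 8 libraries, on log2(CPM + 0.5). Over all 7626 pairs the median correlation was 0.08, and 9.90% of pairs were above 0.7, against 0.04 and 8.96% for all pairs of IDs at 10 CPM or more. The members thus did not vary as a single block within groups. The closest pair was a member on chromosome 10 at locus 107700 and one on chromosome 17 at locus 013500, with a correlation of 0.995 over the 8 libraries. The first stood at 111, 205, 174 and 200.04 CPM in control and 57.7, 74.98, 29.9 and 48.6 CPM in the cold. The second stood at 110.1, 227, 191 and 217 CPM and at 61.7, 82.9, 32.6 and 49.9 CPM. Their ratio was between 0.901 and 1.00 in every library, and their falls were 3.26- and 3.28-fold. Where 2 genes have near-identical sequence, reads can be split between them, and the treatment of such reads in the counting was not found in the labels.

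Members lay on all 18 chromosomes. The counts were highest on chromosomes 1, 13 and 14, with 13 members each, and lowest on chromosome 18, with 2. As a share of the IDs at 10 CPM or more on the same chromosome, this was 0.915%, 1.67% and 1.48% on chromosomes 1, 13 and 14 and 0.291% on chromosome 18, against 0.784% over all of them. Order along a chromosome was taken from the locus numbers in the IDs, not from coordinates. In that order, 2 of the 247 IDs at 1 step from a member were members themselves, as were 2 of 246 at 2 steps. At 3 steps it was 6 of 247 and at 4 steps 4 of 247. From 5 to 10 steps it was 0 or 2 at each step, where 124 of all 26517 tested IDs were members. No test of placement was made. Only 1 pair of members was adjacent, and 121 members had no other member within 2 tested IDs.

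The remaining 3 members formed a group on chromosome 7 at loci 033000, 033300 and 033400. The first went from 52.5, 56.9, 35.6 and 44.8 CPM to 21.2, 12.7, 15.7 and 11.7 CPM, a 3.10-fold fall. The second went from 41.7, 38.9, 28.8 and 30.9 CPM to 12.4, 7.06, 7.60 and 4.85 CPM, a 4.40-fold fall. The third went from 50.4, 51.7, 28.3 and 37.1 CPM to 12.4, 4.65, 5.54 and 3.41 CPM, a 6.45-fold fall. In all 3, control replicate 3 was lowest of the controls and cold replicate 1 highest of the cold libraries. The deviations of loci 033300 and 033400 from their group means correlated at 0.98 over the 8 libraries. Between loci 033000 and 033300, the ID at locus 033200 had means of 25.3 and 13.5 CPM in control and cold, with a log2 fold change of -0.87 (SE 0.29) and an edgeR adjusted p of 0.0982, and the next ID before the group, at locus 032900, had 26.2 and 13.9 CPM, with a log2 fold change of -0.88 (SE 0.33) and an adjusted p of 0.131. These 2 IDs did not pass the edgeR test and had control replicate 1 as their lowest control library, unlike the 3 members. They also stood close to each other in every library, at 13.2, 27.5, 23.8 and 36.7 CPM in control for the first and 12.7, 28.3, 25.7 and 38.2 CPM for the second. The tested IDs after the group, at loci 033500 and 033600, did not pass either.

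IDs next to a member were called lower more often than IDs in general. Of the 245 non-member IDs directly beside a member, 31 (12.7%) fell in the edgeR test, against 5.09% of all tested IDs. Among the 145 of them at 10 CPM or more it was 20 (13.8%), against 6.20%. A rise was called for 7 (2.86%), against 4.06% of all tested IDs. Negative log2 fold changes were found for 65.3% of the 245, against 49.0% of all tested IDs, with a median of -0.19. Leaving members out removes the deepest falls from these neighbours, and no test of placement was made.

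The excess was largest at the first step. At 2 steps 5.74% of the non-member IDs fell, at 3 steps 6.22%, at 4 steps 7.82% and at 5 steps 6.05%. From 6 to 10 steps the share lay between 2.44% and 4.05%, below the 5.09% of all tested IDs. Negative log2 fold changes made up 61.5% at 2 steps, 52.7% at 3 steps and 49.6% at 10 steps. The count of fallen first neighbours was 17 without control replicate 2, 20 and 19 without replicates 3 and 4 of the cold group, and 17 when the 3 libraries named above for their abundant IDs were all left out. In those fits 2.20%, 3.16%, 2.51% and 2.86% of all tested IDs fell, against 6.94%, 8.16%, 7.76% and 6.94% of the first neighbours.

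**Figure D5:**
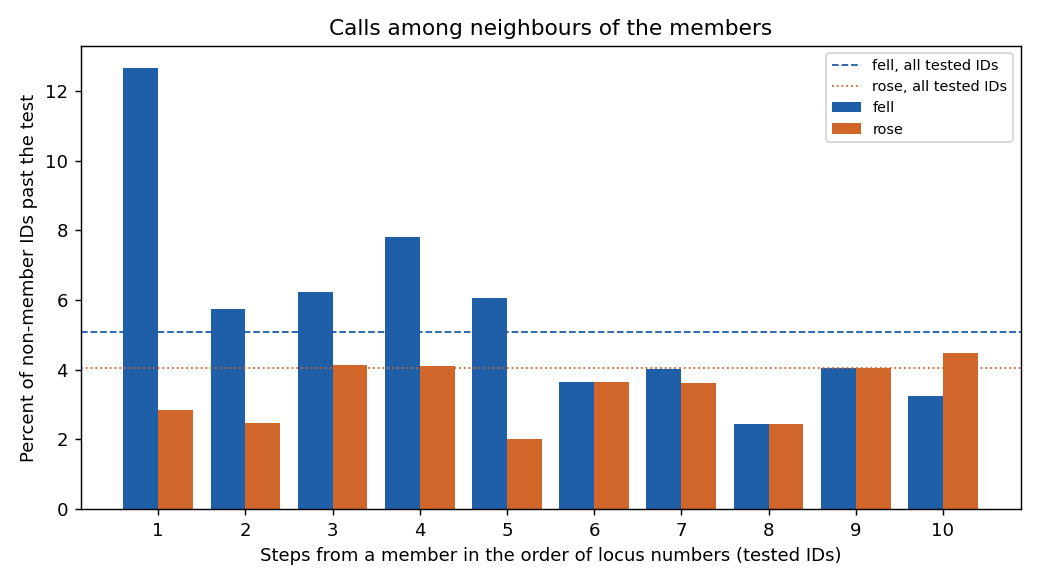
Percent of non-member IDs called lower (blue) or higher (orange) in the cold by edgeR, against the number of steps from a member in the order of locus numbers. The dashed line (5.09%) and the dotted line (4.06%) are the shares over all tested IDs; the blue bar at 1 step reaches 12.7%.

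Of the 31 fallen neighbours, 11 were below 10 CPM in control, and 9 of these fell at least 3-fold. At 10 CPM or more were 20, and 1 of these fell at least 3-fold. The rule sets this difference, since an ID at that level with a 3-fold fall and groups apart is a member and was not counted as a neighbour. Over all 31 the log2 fold changes ran from -3.31 to -0.37 with a median of -1.14, and 6 had a larger ratio of control to cold than the member beside them. They lay on either side of the member equally often, 16 at the higher and 15 at the lower locus number, and 29 members had at least 1 of them. In control, 10 of the 31 were more abundant than the member itself.

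Beside the members on chromosome 3 at loci 151300 and 152100, the IDs at loci 151600 and 151900 both fell. The first went from 8.04 to 1.33 CPM, with a log2 fold change of -2.55 (SE 0.49) and an edgeR adjusted p of 0.0136. The second went from 3.67 to 0.356 CPM, with a log2 fold change of -3.31 (SE 0.48) and an edgeR adjusted p of 0.00424. Their deviations from the group means followed the member beside them, with correlations of 0.92 and 0.81 over 8 libraries. Among all 31, 5 had a correlation above 0.7 with their member and the median was 0.19. On chromosome 17, the ID at locus 101400 beside a member of 57.9 CPM was far more abundant, at 2472 CPM in control and 1114 CPM in cold libraries, with a log2 fold change of -1.12 (SE 0.27) and an edgeR adjusted p of 0.0320. Reads from overlapping neighbours may have been counted for both, and the labels do not state whether counting used the strand. The part of this in the neighbours' falls was not tested.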

How the data were processed

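RNA of 4 control and 4 cold cassava shoot samples was made into stranded total RNA libraries, per the labels' protocols. The authors deposited a single table of unscaled counts, in which gene IDs are rows and libraries are columns. STAR 2.7.10a, SAMtools 1.6 and bedtools 2.30 are listed, with no role, in the submitters' processing notes. Not given in the sources used here are the counter, its strand setting, the annotation and the build.

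CPM is the count divided by the column sum, times 1000000. The difference between cold and control was tested with edgeR 4.0.16 under R 4.3.3 (filterByExpr, TMM factors, robust quasi-likelihood F test, 2-sided, Benjamini-Hochberg adjustment over 26517 IDs, threshold 0.05), without a replicate block; an SE is the absolute log2 fold change over the square root of F. The procedure was also run on simulated data, and the share of changed IDs it recovered is not given here. Summaries and plots used Python 3.11.15, pandas 2.3.3 and matplotlib 3.10.9.

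The members, lists and tests were chosen with earlier results of these data known. Named by ID were the member with the largest fall and the most abundant member; others are given by rank or locus number, the 3 nearest to each limit among them, and those given by locus number were chosen after their values were seen, as were the single members on chromosomes 9 and 11. Gene lists need descriptions and were not used. Alternatives were DESeq2 1.42.0, RLE factors, library size only, no count filter, a replicate block, each library left out, and other limits and scalings of the rule.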

Additional observations from a re-analysis of the deposited data

Results flagged for a closer look

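Among 44 groups of 4 libraries, 3 held a library far from the other 3, where chance gives about 1 in 20. These groups covered ranks 1 to 7 by fall and by level, the chromosome 7 members, the closest pair and the uncalled member. The members' summed share and median level were also among them. Rank 7 by level, on chromosome 14, reached 705 CPM in control replicate 1, against 174 to 253 CPM in the other control libraries. Rank 3 by level, on chromosome 3, reached 76.6 CPM in cold replicate 2, against 57.5 to 59.9 CPM in the other cold libraries. Rank 7 by fall, on chromosome 10, reached 15.8 CPM in control replicate 2, against 9.83 to 10.7 CPM in the other control libraries. Other members given per library, such as rank 8 by level on chromosome 9, were not among the 44 groups. In that member control replicate 1, at 557 CPM, was also far from the other control libraries. Over both groups of all 124 members, 13 of 248 groups (5.24%) held such a library, and control replicate 1 was the far library on the high side in 3 of them, cold replicate 1 also in 3.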

How the results depend on the processing

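Of 124 recomputed values, 105 stayed within 1.5 times the count, within the spread between replicates or on the same side of the threshold. Only the log2 fold changes of members had a sign to change, and none did, which the choice of falls by the rule largely fixed. IDs called lower numbered 1349, against 2385 in DESeq2, 769 without the 3 libraries richest in abundant IDs and 589 to 1385 when 1 library was left out (589, 782, 844 and 673 without control 2, control 3, cold 3 and cold 4). Of the members, 103 to 124 passed in the 14 other fits, with median log2 fold changes from -2.03 to -1.86. In those fits 2.20% to 8.42% of all tested IDs were called lower. Since the rule used the same contrast, the member counts support nothing about the members. Fallen first neighbours numbered 31, against 17 without the 3 libraries, 17 to 27 when 1 library was left out and 44 in DESeq2. The rule gave 405 IDs at a 2-fold and 59 at a 4-fold limit, with median bounds of 2.29 and 1.17 h, against 124 and 1.52 h; these follow from the limit. The bound was 1.24 h with synthesis at 10%, and 1.44 to 1.54 h when 1 library was left out. Without 1 library the rule gave 116 to 152 IDs, of which 104 to 123 were members; without the 3 libraries it gave 152, of which 98 were members. The cold spread was 0.29 at a pseudocount of 2 CPM, which damps low levels. The cause was not tested for the other moves. The labels state no link between same-numbered control and cold libraries beyond the number. Correlations of their deviations were 0.22, 0.07, -0.27 and -0.08, which cannot decide whether they were handled together. With the replicate block 689 IDs (2.60% of all tested IDs), 111 members and 18 first neighbours (7.35% of 245) were called lower. The 3-library and 10% settings were chosen after seeing the data.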
